A study of Mus musculus with 6 samples.

Results

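Molecular chaperones were examined here as 70 genes of the heat shock protein, DNAJ and chaperonin families, among 12394 genes read on the arrays. Members were chosen by symbol. A probe set, the group of short probes that reads one transcript, had to be annotated to a single gene whose symbol began with Hsp (followed by a, b, d, e, h or a digit) or Dnaj, or was Cct2 to Cct8 or Tcp1. These genes had 146 probe sets, and each gene was read by the one with the highest mean over the 6 arrays. A pair of probe sets naming both Dnajc19 and its pseudogene was left out (2 probe sets), and no probe set named Hsp90ab1 alone.

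RNA came from thymocytes of untreated, 3-week-old C57BL6 mice, all homozygous for the Cd3e deletion (Cd3e-/-), which stops T cell development before a T cell receptor signal can be passed. The 3 arrays labelled SCLtg LMO1tg came from mice that also carried SCL, a basic helix-loop-helix factor, under the Sil promoter and LMO1, a LIM-only partner of SCL, under the Lck promoter, which is active in thymocytes. The 3 control arrays came from Cd3e-/- mice without either transgene. Nothing in the labels ties each array to its own animal, so the p-values measure only the spread between these arrays, and their number limits the precision of each value.

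Chaperones hold unfolded proteins and let them fold. HSP70 proteins bind short hydrophobic stretches in cycles driven by ATP, which DNAJ proteins (HSP40) start and HSP110 proteins reset by exchanging the nucleotide. HSP90 acts late, on kinases and receptors, and the chaperonins are closed barrels: HSP60 with its lid HSP10 in mitochondria, and the CCT ring, which folds actin and tubulin, in the cytosol. Small heat shock proteins hold unfolded proteins without ATP. Heat shock factor 1 switches on many of these genes through heat shock elements, which are alternating GAA and TTC blocks, while chaperones of the endoplasmic reticulum (ER) answer to ATF6 and XBP1 through the ER stress element.

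Promoter sequence is shown for members described at length below, as examples of the heat shock element and of the ER stress element. The sequences are from RefSeq on GRCm38.p6, which held 74 windows for 58 of the 70 members, and the 250 bases before each start were searched. Capitals mark the matches, with 12 bases on each side where the window allowed. Hspd1 and Hspe1, for mitochondrial HSP60 and HSP10, lie head to head, and 1 stretch, chr1:55088047-55088088, lies in the promoter window of both. It is written 5′ to 3′ on the minus strand for Hspd1 and on the plus strand for Hspe1, and its capitals are overlapping blocks of the heat shock element.
Hspd1: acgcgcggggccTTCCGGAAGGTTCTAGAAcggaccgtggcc
Hspe1: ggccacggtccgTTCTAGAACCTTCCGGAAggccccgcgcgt

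The 3-block form GAANNTTCNNGAA, searched on both strands, was also in Dnajb6 (chr5:29735840-29735876, plus strand), a DNAJ protein that keeps aggregation-prone proteins soluble. Pairs of blocks, TTCNNGAA or GAANNTTC, were in Hsph1, the HSP110 of the cytosol (chr5:149636350-149636381, minus strand), in Dnaja1 (chr4:40722332-40722363, plus strand), in Hspa1b (chr17:34959323-34959354, minus strand), and in the CCT subunit genes Cct2 (chr10:117063398-117063429, minus strand) and Cct5 (chr15:31601861-31601892, minus strand). Pairs were also in Dnaja4, Dnajb4, Dnajc10, Dnajc27, Hspa1a, Hspb1 and Hspb3, which are not printed.
Dnajb6: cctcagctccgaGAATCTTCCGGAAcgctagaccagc
Hsph1: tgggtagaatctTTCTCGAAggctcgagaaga
Dnaja1: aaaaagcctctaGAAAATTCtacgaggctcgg
Hspa1b: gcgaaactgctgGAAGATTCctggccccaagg
Cct2: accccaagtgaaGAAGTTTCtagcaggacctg
Cct5: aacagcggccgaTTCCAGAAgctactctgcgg

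The ER stress element, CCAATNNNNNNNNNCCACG on either strand, was in 3 members: Hspa5, the HSP70 of the ER (BiP, chr2:34772013-34772055, plus strand), Dnajc3, an ER-lumenal DNAJ protein that also inhibits the kinase PERK (chr14:118937815-118937857, plus strand), and Hsp90b1, the HSP90 of the ER (GRP94, chr10:86705521-86705668, minus strand), where 2 copies stand in opposite orientation.
Hspa5: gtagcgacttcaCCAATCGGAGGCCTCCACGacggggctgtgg
Dnajc3: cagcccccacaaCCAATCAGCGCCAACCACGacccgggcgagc
Hsp90b1: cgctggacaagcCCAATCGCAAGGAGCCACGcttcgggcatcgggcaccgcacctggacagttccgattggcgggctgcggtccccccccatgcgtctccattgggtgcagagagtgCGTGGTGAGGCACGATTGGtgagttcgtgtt

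Among all 32851 windows of the same length, 0.466% held the 3-block element, against 4 of 74 member windows (5.41%), which belong to the 3 genes named above. The ER stress element was in 0.113% of all windows and in 3 member windows (4.05%). GAANNTTC was in 6.69% of all windows and 12 member windows (16.2%), and TTCNNGAA in 7.17% and 9 (12.2%). The 3-block element contains both pairs, so these counts overlap. Some windows also overlap, so the stretch shared by Hspd1 and Hspe1 and the sites of Dnajb6 and Hsph1 are each counted more than once. Pairs were not limited to members with a log2 difference (SCLtg LMO1tg minus control) above 0. By the probe set used for each gene, Dnajb4 (-0.30), Hspb3 (-0.33), Hspb1 (-0.18) and Dnajc10 (-0.02) were below 0 and held such a pair. A match is a description of the letters and not of binding.

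The transgenes were read first as a check of the labels. Lmo1 measured 5.11, 5.07 and 4.86 on the arrays labelled SCLtg LMO1tg and 6.64, 6.84 and 6.77 on the control arrays (log2 units, in which 1 unit is a doubling). The difference, SCLtg LMO1tg minus control, was -1.74 (SE 0.14, limma adjusted p = 8.3e-04), so this transgene ran against the labels. Lyl1, a relative of SCL, differed by -1.22 (SE 0.18, limma adjusted p = 0.0319), and the study describes it in the opposite direction. A probe set may lie outside the part of the gene that a transgene carries, and would then read only the gene of the mouse itself. Lyl1 was not a transgene in these mice. Tal1, which encodes SCL, did not pass the filter on low values and measured 4.55 to 4.71 against 4.27 to 4.44. Cd3e, disrupted in all 6 samples, still gave 8.53 to 8.65 and 8.41 to 8.72, a difference of 0.07, and a probe set outside the disrupted part checks nothing. Ptcra, the pre-T cell receptor alpha gene and a target of the E proteins that SCL inhibits, was higher on the arrays labelled SCLtg LMO1tg by 1.28 (SE 0.16, limma adjusted p = 0.0128). Every sign below follows the labels as deposited, and each would turn if the labels of the groups were exchanged.

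No chaperone passed the test. Of the 70 members, 60 passed the filter, and 0 of 60 had an adjusted p under 0.05 in limma, against 14 of 8693 genes in all (0.161%), which were 7 higher and 7 lower (0.0805% each). At an unadjusted p under 0.05, 7 members were higher on the arrays labelled SCLtg LMO1tg (6.3% of all genes were) and 0 were lower (3.14%), against 9.44% of all genes in either direction. The higher ones were Hsp90b1, Dnajb11, Dnajc7, Dnajc9, Dnajc15, Cct2 and Cct7. Groups did not overlap for 7 members, all higher (7.33% of all genes), and for 0 in the lower direction (6.37%, and 13.7% in either). These were Dnajb11, Dnajc8, Dnajc9, Dnajc15, Dnajc24, Cct2 and Cct7, and the differences of Dnajc8 and Dnajc24 were 0.07 and 0.26, with an unadjusted p of 0.584 and 0.117 in limma. Rank products, with a percentage of false positives under 0.1, called 0 members, where 0.518% of all genes were called higher and 0.472% lower. The lowest values among members were 0.125 for Hsph1, 0.212 for Hsp90b1 and 0.233 for Hspd1. With array weights, which count noisier arrays less, 4 members passed, Cct7, Hspe1, Dnajc9 and Dnajc15, all higher, against 6.22% of all genes (4.79% higher and 1.44% lower).

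Most members had a difference above 0 that did not pass the test. Their median difference was 0.23 on the log2 scale, with 45 above and 15 below 0, while the median over all genes tested was -0.01. The difference moved with the level of the probe set. At a mean of at least 8 the median was 0.36 for 25 members and 0.15 for 1925 genes, and below 8 it was 0.06 for 35 members and -0.04 for 6768 genes. With control replicate 3 left out, the median of all members was 0.09 and 40 were above 0, while that of all genes tested was 0.0008. The 1925 genes with a mean of at least 8, the level of 25 members, had 0.11 without that array. Medians were 0.66 for HSP90 (2 genes), 0.66 for HSP60 and HSP10 (2), 0.37 for HSP70 (6), 0.32 for HSP110 (3), 0.35 for CCT (8) and 0.11 over all DNAJ genes (34). The 4 small heat shock proteins had a median of -0.23. Leaving out control replicate 3 gave medians of 0.29 for HSP90, 0.27 for HSP60 and HSP10, 0.13 for HSP70, 0.13 for HSP110, 0.15 for CCT, 0.07 for DNAJ and -0.17 for the small heat shock proteins.

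**Figure D1:**
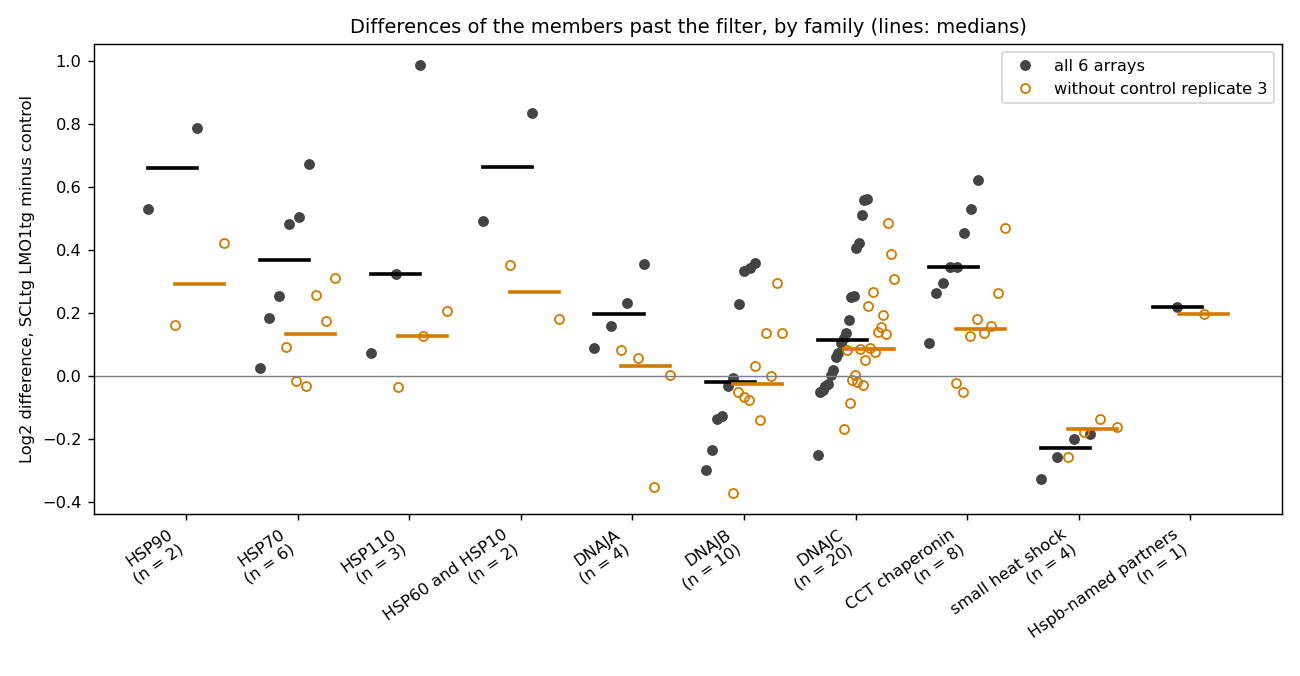
Log2 difference (SCLtg LMO1tg minus control, y axis) of each of the 60 members past the filter, by family (x axis). Filled points use all 6 arrays, open points leave out control replicate 3, and lines are medians; HSP90 and the HSP60 and HSP10 pair have medians of 0.66 with all arrays, and every family median except that of the DNAJB genes is nearer 0 without that array.

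Control replicate 3 stood apart in these genes. It was the lowest of the 6 arrays in 31 of 60 members (51.7%), against 24.3% of all genes, and in all 8 CCT genes past the filter. Among probe sets with a mean of at least 8 it was lowest in 23 of 25 members against 39.0% of 1925 genes, and in all 12 members at 10 or above against 32.9% of 304 genes. In 12 members its gap below the next array exceeded the whole span of the other 5 arrays (20.0%, against 4.26% of all genes). These were Hsp90aa1, Hsp90b1, Hspa8, Hspa9, Hsph1, Hspd1, Dnaja1, Dnajb1, Dnajc9, Cct2, Cct3 and Cct5.

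Other measures of that array were read beside this. The difference between the 3′ and 5′ probe sets for Actb, a sign of RNA integrity and of the amplification used here, was 2.86 on control replicate 3, 2.52 and 1.48 on the other control arrays, and 2.26 to 2.71 on the arrays labelled SCLtg LMO1tg. The same measure for Gapdh did not set that array apart, at 3.01 against 3.17 and 2.38 on the other control arrays and 3.10 to 3.51 on the arrays labelled SCLtg LMO1tg. The bacterial hybridization controls split the arrays into a low set (8.64 to 9.19: SCLtg LMO1tg replicates 2 and 3 and control replicate 1) and a high set (10.24 to 10.45: SCLtg LMO1tg replicate 1 and control replicates 2 and 3). Their part in the result was not tested. The members' median difference was 0.04 within the low set and 0.17 within the high set. Control replicate 1 was the only control array in the low set, and SCLtg LMO1tg replicate 1 the only array so labelled in the high set. The high set also holds control replicate 3, so every difference within a set mixes the set with single arrays.

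**Figure D2:**
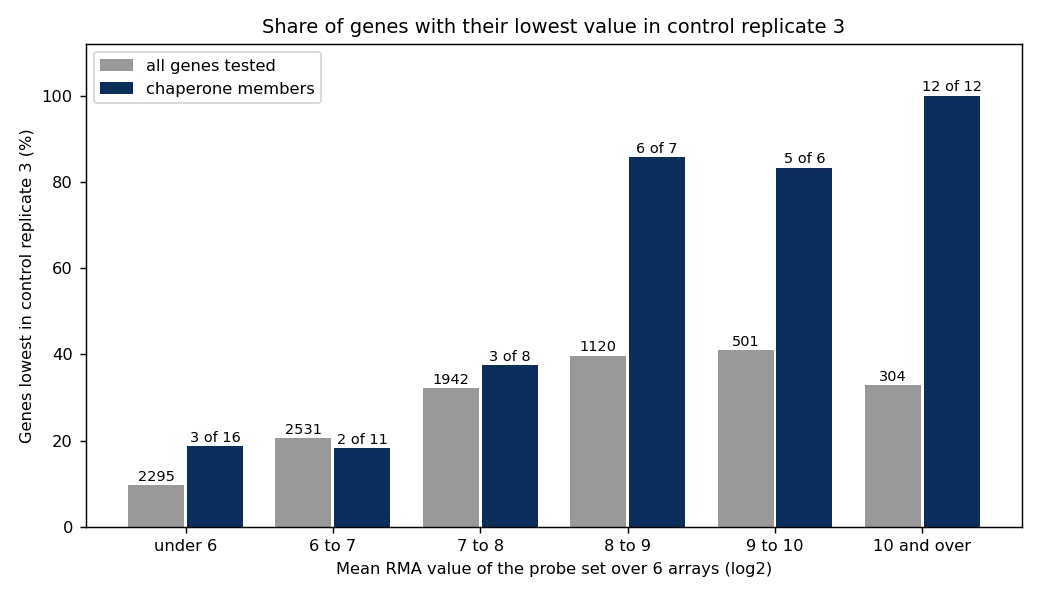
Percent of genes with their lowest value on control replicate 3 (y axis), by the mean log2 value of the probe set (x axis), for all genes tested (grey, number of genes above the bar) and members (dark). All 12 members at 10 or above were lowest there, against 32.9% of all genes at that level.

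**Figure D3:**
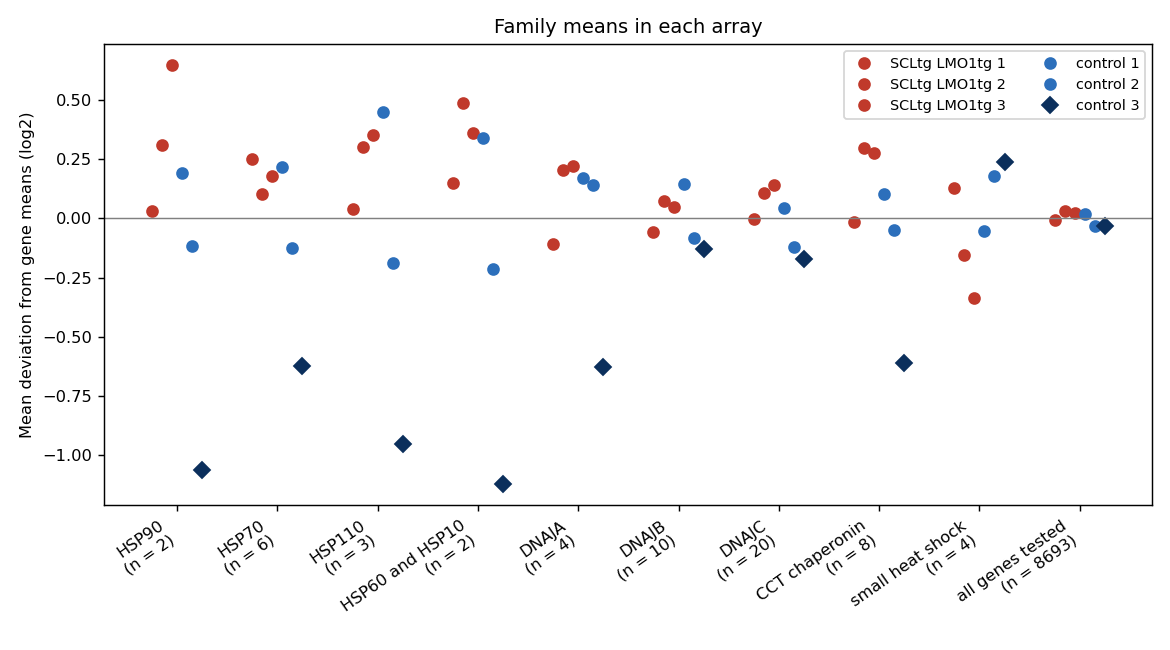
Mean deviation of each family from its genes' own means (y axis, log2) on each array, by family (x axis), with all genes tested at the right. Control replicate 3 (diamond) stands at -1.06 for HSP90 and -1.12 for HSP60 and HSP10 but at 0.24 for the small heat shock proteins, where it is the highest array, and at -0.03 for all genes.

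HSP90 proteins were read by 2 genes. Hsp90b1 measured 7.81, 8.35 and 8.80 on the arrays labelled SCLtg LMO1tg and 7.98, 7.81 and 6.79 on control arrays. SCLtg LMO1tg replicate 1 lay level with control replicate 2 and below control replicate 1, so the groups overlapped. The difference was 0.79 (SE 0.33, 95% interval 0.05 to 1.53, limma adjusted p = 0.502), and 0.42 without control replicate 3. The second Hsp90b1 probe set gave 0.44 (SE 0.36), and 0.05 without that array.

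Hsp90aa1, the stress-inducible HSP90 of the cytosol, measured 9.88, 9.90 and 10.13 against 10.02, 9.59 and 8.70. Control replicate 1 lay among the arrays labelled SCLtg LMO1tg, and only control replicate 3 stood well below. Its difference of 0.53 (SE 0.29, adjusted p = 0.58 in limma) was 0.16 without that array. The 2 other Hsp90aa1 probe sets gave 0.70 and 0.63, or 0.22 and 0.27 without it.

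HSP70 genes past the filter numbered 6, all with a difference above 0 and none past the test. Hspa5 (BiP) measured 10.23, 10.47 and 10.61 against 10.48, 9.77 and 9.04. Control replicate 1 lay as high as the arrays labelled SCLtg LMO1tg and the other control arrays lay lower. The difference was 0.67 (SE 0.31, 95% interval -0.01 to 1.36, limma adjusted p = 0.53), and its second probe set gave 0.64. Both were 0.31 without control replicate 3. The difference was 1.03 without control replicate 1, 0.06 within the low hybridization set and 0.82 within the high set.

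Hspa9, the mitochondrial HSP70 that pulls proteins through the inner membrane, measured 8.19, 8.62 and 8.43 against 8.38, 8.10 and 7.25. Its difference was 0.51 (SE 0.27), and 0.18 without control replicate 3. Its other probe sets gave 0.79, -0.17 and -0.28, and those below 0 did not pass the filter on low values. Hspa14, which works at the ribosome with Dnajc2, had 0.48 (SE 0.22), and Dnajc2 itself 0.41 (SE 0.23), or 0.26 and 0.19 without control replicate 3.

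Hspa8, the constitutive HSC70, measured 12.50, 12.16 and 12.41 against 12.34, 12.40 and 11.77. Without control replicate 3 its difference went from 0.19 to -0.02, while its 3 other probe sets gave 0.51, 0.32 and 0.88 with all arrays and 0.19, 0.07 and 0.72 without it. The stress-inducible Hspa1b measured 6.45, 5.44 and 5.49 against 6.26, 5.39 and 4.96. The first replicate of each group stood about 1 unit above the others, and the difference of 0.26 (SE 0.35) was -0.80 within the low hybridization set and 1.27 within the high one. Hspa1a, its near-identical neighbour, whose probes may be shared, did not pass the filter. Hspa2, the testis-enriched form, differed by 0.03.

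HSP110 proteins gave the largest difference among the 60 members. Hsph1 measured 10.04, 10.25 and 10.15 on the arrays labelled SCLtg LMO1tg and 10.52, 9.36 and 7.61 on the control arrays. The arrays labelled SCLtg LMO1tg lay close together, while control replicate 1 was the highest of all 6 and control replicate 3 the lowest. The difference was 0.99, or 1.98-fold (SE 0.56, 95% interval -0.27 to 2.25, adjusted p = 0.598 in limma). It was 0.21 without control replicate 3, -0.32 within the low hybridization set and 1.56 within the high set. The second Hsph1 probe set gave 0.69, and -0.10 without control replicate 3. Hspa4 differed by 0.32 (SE 0.21), or 0.13 without that array, though its 2 other probe sets gave 0.55 and -0.10, and Hspa4l by 0.07 (SE 0.18).

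The mitochondrial chaperonin pair shares the promoter stretch printed above. Hspd1 measured 10.27, 10.73 and 10.47 against 10.44, 10.17 and 8.34. All arrays but control replicate 3 lay within 0.55 of each other. The difference of 0.84 (SE 0.45, limma adjusted p = 0.58) was 0.18 without that array. Hspe1 measured 8.29, 8.51 and 8.51 against 8.50, 7.66 and 7.67. Here control replicates 2 and 3 were alike and low, which was not so for Hspd1, where control replicate 2 stood near the arrays labelled SCLtg LMO1tg. The difference for Hspe1 was 0.49 (SE 0.23, limma adjusted p = 0.534), and 0.67 with array weights (adjusted p = 0.0421 in limma). Its second probe set gave 0.03.

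**Figure D4:**
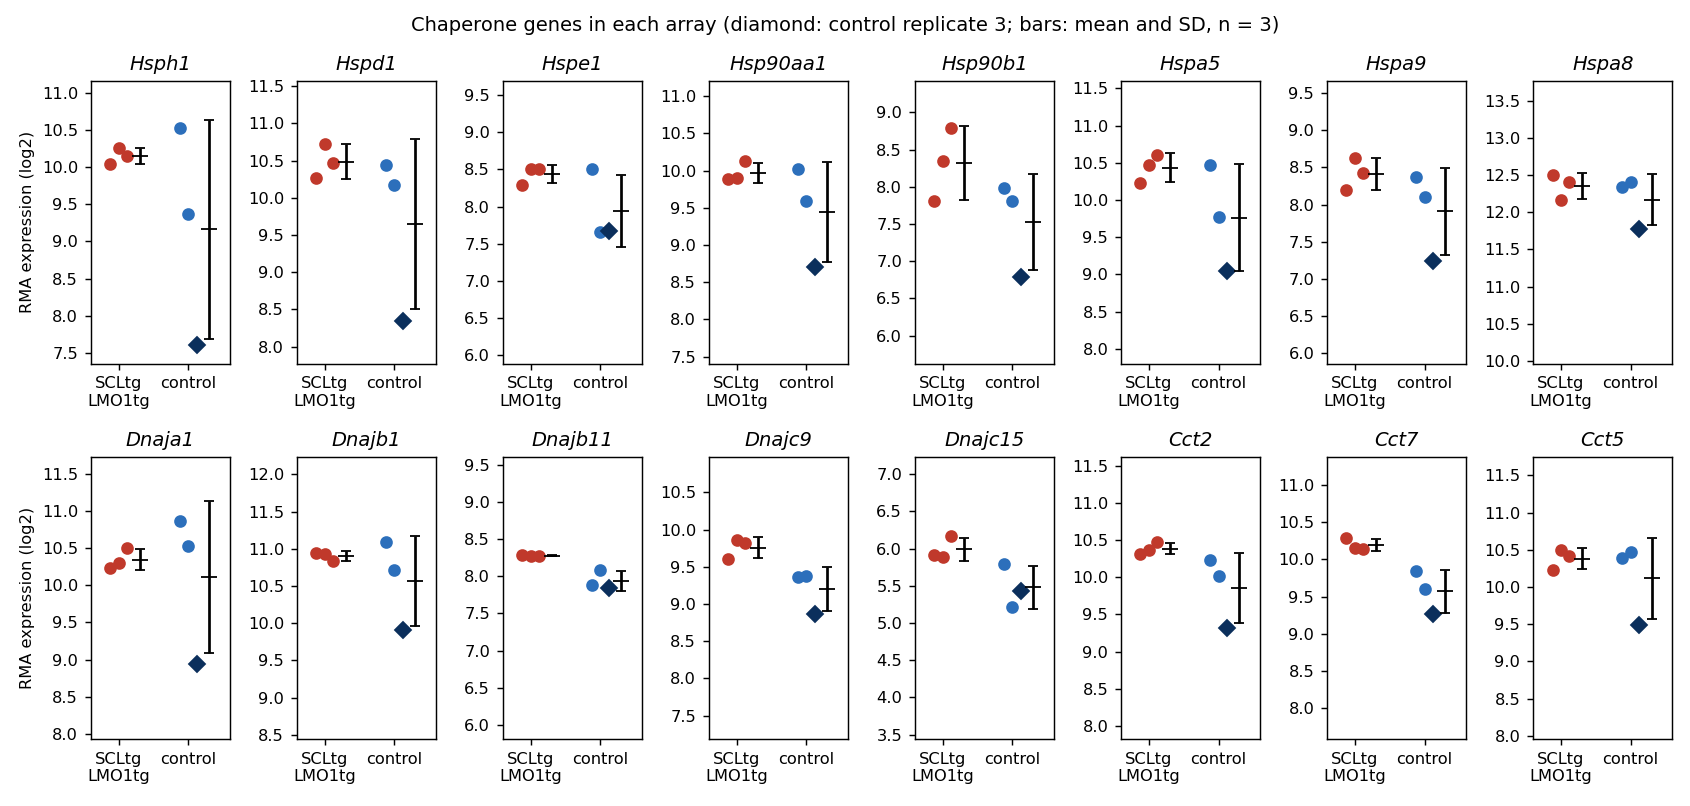
RMA values (log2, y axes of equal span) of 16 members on the 3 arrays labelled SCLtg LMO1tg (red) and the 3 control arrays (blue, with control replicate 3 as a diamond); bars give mean and SD (n = 3). For Hsph1, Hspd1 and Dnaja1 the diamond stands apart from the other 5 arrays, whereas for Dnajb11 and Dnajc15 it lies among the other control arrays.

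The CCT ring has 8 subunits, and each of the 8 genes past the filter had a difference above 0, from 0.11 for Cct3 to 0.62 for Cct7. None passed the test. Cct7 measured 10.28, 10.16 and 10.13 against 9.84, 9.60 and 9.26. Every array labelled SCLtg LMO1tg was above every control array. The difference was 0.62, or 1.54-fold (SE 0.17, 95% interval 0.24 to 1.00, limma adjusted p = 0.276), the smallest adjusted p among the members. It was 0.47 without control replicate 3 and 0.59 with array weights (adjusted p = 0.0335 in limma), and its second probe set gave 0.41, or 0.13 without control replicate 3.

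Cct2 measured 10.31, 10.37 and 10.47 against 10.23, 10.01 and 9.32. Its groups did not overlap either, although control replicate 1 lay only just below. The difference was 0.53 (SE 0.22, adjusted p = 0.502 in limma) and the other 2 probe sets gave 0.95 and 0.64. They were 0.26, 0.39 and 0.36 without control replicate 3.

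The other subunits overlapped between groups. Cct8 differed by 0.46 (SE 0.31), Cct4 and Cct6a by 0.35 (SE 0.23 each), Tcp1 by 0.30 (SE 0.19) and Cct5 by 0.26 (SE 0.25). Cct8 and Cct6a were low on SCLtg LMO1tg replicate 1 as well as on control replicate 3. Without control replicate 3 the CCT median went from 0.35 to 0.15 and 6 of 8 subunits were above 0, with Cct4 at 0.18, Cct8 at 0.16, Cct6a at 0.14, Tcp1 at 0.13, Cct5 at -0.05 and Cct3 at -0.02. The testis form Cct6b did not pass the filter.

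DNAJ proteins bring substrates to HSP70 and, through their J domain, start its ATPase. Of 38 such genes, 34 passed the filter, with 23 differences above and 11 below 0. The DNAJA genes, which stand closest to bacterial DnaJ, had a median of 0.20 (4 genes), the DNAJB genes -0.02 (10, or 0.03 with each array centred on its median) and the varied DNAJC genes 0.11 (20).

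Dnaja1 measured 10.23, 10.30 and 10.50 against 10.87, 10.52 and 8.94. Control replicates 1 and 2 were above every array labelled SCLtg LMO1tg and control replicate 3 was far below. The difference was 0.23 (SE 0.41) with all arrays and -0.35 (SE 0.17, limma adjusted p = 0.739) without control replicate 3. The second Dnaja1 probe set did not change sign, at 0.32 and 0.15. Dnajb1, the stress-inducible HSP40, measured 10.95, 10.93 and 10.83 against 11.09, 10.71 and 9.91. Its difference of 0.33 (SE 0.26) was 0.00 without that array, and its second probe set ran the other way, at -0.19 with all arrays and -0.47 without that one.

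Dnajb11, an ER-lumenal partner of BiP, varied little among the arrays labelled SCLtg LMO1tg, with 8.28, 8.28 and 8.27 against 7.88, 8.08 and 7.84. The groups did not overlap, and control replicate 3 lay beside control replicate 1. The difference was 0.34 (SE 0.14, limma adjusted p = 0.48), and 0.30 without control replicate 3. Dnajb6, which holds the 3-block element, had 0.36 (SE 0.24) by the probe set used, or 0.14 without control replicate 3. Its 3 other probe sets gave -0.27, -0.17 and -0.14, and that at -0.17 did not pass the filter on low values.

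Among the DNAJC genes, Dnajc9, which also chaperones histone H3, measured 9.60, 9.86 and 9.82 against 9.37, 9.37 and 8.86. The groups did not overlap, and control replicates 1 and 2 were alike. The difference was 0.56 (SE 0.18, adjusted p = 0.373 in limma), and 0.39 without control replicate 3. Dnajc15, of the mitochondrial inner membrane, measured 5.91, 5.89 and 6.17 against 5.79, 5.22 and 5.43. Here control replicate 2 was lowest, and the difference of 0.51 (SE 0.18, limma adjusted p = 0.407) was 0.49 without control replicate 3.

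Dnajc7, which binds both HSP70 and HSP90, differed by 0.56 (SE 0.25) and Dnajc3 by 0.42 (SE 0.27). Without control replicate 3 these were 0.31 and 0.13, and the 4 other Dnajc3 probe sets ran from -0.01 to 0.60. The most negative DNAJ differences were -0.30 for Dnajb4, -0.25 for Dnajc4, -0.23 for Dnajb12 and -0.14 for Dnajb5, with SEs of 0.15 to 0.21. They were -0.37, -0.17, -0.05 and -0.06 without that array. All of these groups overlapped.

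The 4 small heat shock proteins past the filter ran the other way by the probe sets used. Hspb3, Hspb7, Hspb8 and Hspb1 differed by -0.33, -0.25, -0.20 and -0.18, with adjusted p between 0.638 and 0.684 in limma. Other probe sets gave -0.04 and 0.01 for Hspb7, -0.20 and -0.02 for Hspb8, and 0.03 for Hspb1. Of these, only that at -0.04 passed the filter on low values, and it was 0.11 without control replicate 3. Within the high hybridization set Hspb3 differed by 0.13. Hspb11 (0.47) and Hspb2 (-0.16) did not pass the filter. Hspb1 (HSP25) measured 7.30, 6.99 and 6.96 against 7.09, 7.40 and 7.31. SCLtg LMO1tg replicate 1 and control replicate 1 each lay within the range of the opposite group. Control replicate 3 was the lowest array for 0 of the 4 genes past the filter. Hspb3, Hspb7 and Hspb8 are best known from muscle, and probe sets with means under 7 had a median difference below 0 over all genes (-0.10 below 6, and -0.05 from 6 to 7). Hspbp1, an HSP70 co-chaperone and no small heat shock protein, had 0.22 (SE 0.14).

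**Figure D5:**
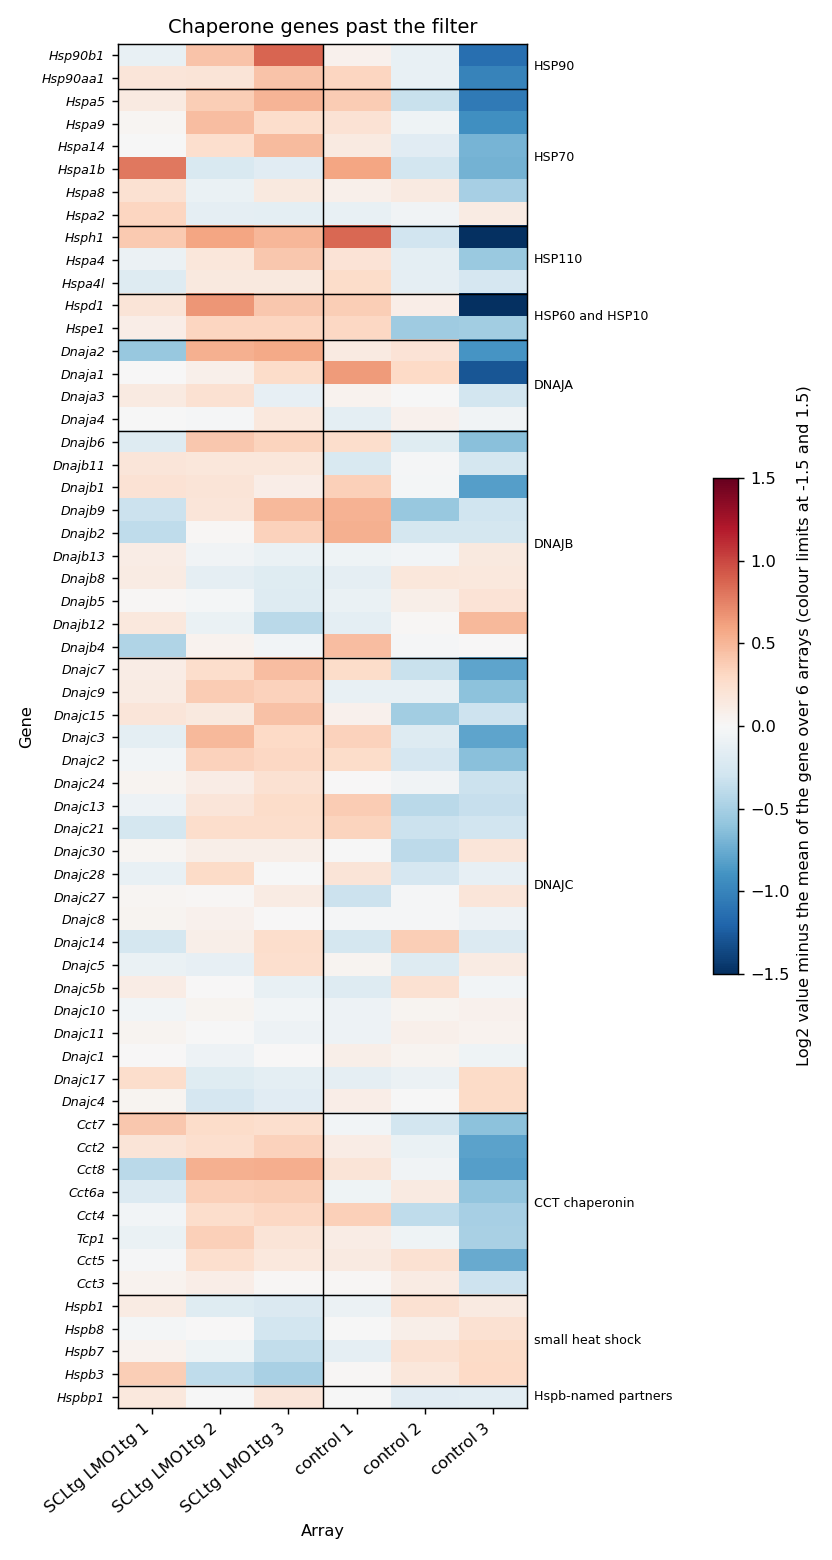
Log2 value minus the gene's mean over 6 arrays (colour) for the 60 members past the filter (rows, by family and then by difference) on each array (columns). Control replicate 3 is blue, meaning low, across HSP90, most HSP70, HSP110 and all 8 CCT genes, and not in the small heat shock proteins.

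Sign was compared across array choices. In 23 of 60 members (38.3%, against 24.6% of all genes) the difference was above 0 with all arrays, within each hybridization set and with any 1 array left out, and in 8 (13.3%, against 22.9%) it was below 0 throughout. The shares over all genes were not matched for the level of the probe set, with which the difference moved. The 23 included the ER proteins Hsp90b1, Hspa5 and Dnajb11, together with Hspa9, Hspa14, Hspd1, Hspe1, Dnajc7, Dnajc9, Dnajc15 and 5 CCT genes (Cct2, Cct6a, Cct7, Cct8 and Tcp1). They did not include Hsph1, Hsp90aa1, Hspa8, Dnaja1 or Dnajb1, nor Dnajb9, Dnajc1 and Dnajc10 of the ER, which differed by 0.23, -0.04 and -0.02. The other Dnajc10 probe sets gave 0.33 and 0.18, or 0.34 and 0.15 without control replicate 3. Without control replicate 3, 3 members, Cct7, Dnajc9 and Dnajc15, had an unadjusted p under 0.05 and were higher (4.37% of all genes), and groups did not overlap for 9 members in that direction (11.0%) and for 2 in the other (10.01%), with 0 members past the adjusted threshold.

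Partners of the chaperones were read from lists of known genes. Of 26 heat shock factors and co-chaperones past the filter, 0 were called higher or lower by limma, and 0 had an unadjusted p under 0.05. Their median difference was 0.10, and -0.00 without control replicate 3, which was the lowest array in 13 of them. Stip1 (HOP), which links HSP70 to HSP90, had 0.42 (SE 0.37) with all arrays and -0.08 without control replicate 3. Ahsa2, an HSP90 ATPase activator, had 0.56 (SE 0.26), St13 (HIP) 0.46 (SE 0.31) and Nudc 0.42 (SE 0.21). Leaving that array out gave 0.26, 0.05 and 0.17.

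Prefoldin, which hands actin and tubulin to CCT, and other CCT helpers had 12 genes past the filter, 0 of them called, with a median of 0.26. Control replicate 3 changed this median little, to 0.27 when left out. The median was 0.17 without control replicate 2, 0.08 within the low hybridization set and 0.25 within the high set. Vbp1 (prefoldin 3) had 0.58 (SE 0.26), Pfdn2 0.43 (SE 0.20), Tbca, a tubulin cofactor, 0.33 (SE 0.22) and Pdcl 0.29 (SE 0.22), which was 0.17 without control replicate 3.

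ER folding genes numbered 20 past the filter, with 0 called, 1 at an unadjusted p under 0.05 (Xbp1) and a median of 0.23, or 0.09 without control replicate 3. Xbp1, a transcription factor of the ER stress response, had 0.51 (SE 0.17, limma adjusted p = 0.387). Pdia3, a disulfide isomerase, had 0.60 (SE 0.43) with all arrays and 0.09 without control replicate 3. Manf had 0.46 (SE 0.25), or 0.29 without it, and Pdia6 went from 0.34 to -0.01 without that array.

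Lists for cell division and for other cell types were read beside these, and Ptcra was the 1 gene among them that passed the test. All 13 mitosis genes had a difference above 0 with a median of 0.63, which was also 0.63 without control replicate 3. Of these, 12 had an unadjusted p under 0.05 in limma (6.3% of all genes in the higher direction) and 0 were called. Of 10 T-lineage markers past the filter, 1 was called higher (Ptcra), and their median was 0.14 (mean levels 8.89 to 9.29 against 8.65 to 9.01). All 12 neutrophil markers passed the filter, with a median of 1.13, 9 above and 3 below 0. At an unadjusted p under 0.05 in limma 7 were higher, beside 6.3% of all genes, and 0 were called. Their mean levels were 6.57 to 7.29 on the arrays labelled SCLtg LMO1tg against 5.62 to 6.27 on control arrays. The median was 0.55 for 5 erythroid markers past the filter, with 3 above and 2 below 0. It was 0.19 without SCLtg LMO1tg replicate 3, 0.43 within the low hybridization set and -0.05 within the high set. For 4 B cell markers past the filter the median was -0.51, with 1 above and 3 below 0. Mean levels here also count markers not past the filter. They were 5.96 to 6.66 against 5.82 to 5.97 for 7 erythroid markers, and 5.23 to 5.37 against 5.49 to 5.88 for 5 B cell markers. Medians were -0.02 for 8 macrophage and dendritic cell markers and 0.12 for 4 thymic stroma markers. For 2 markers of double positive thymocytes, a stage beyond the Cd3e-/- block, it was -0.29, and Cd8a, Cd8b1 and Cd5 did not pass the filter. The median of 11 immediate early genes, which respond to cell handling, was -0.21. In RNA pooled from many thymocytes, fewer cells of a type and less RNA per cell cannot be told apart, and the part of these lists in the chaperone values was not tested.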

How the data were processed

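RNA was amplified and hybridized to Affymetrix mouse genome arrays, 1 per sample. To make the deposited log2 values, the authors ran RMA from affy (version not given in the sources used here). They then dropped probe sets called absent by MAS5 and applied Rank Products. The deposited table still holds all 22690 probe sets, and values run from 2.36 to 14.12. By the platform annotation, 20393 probe sets had 1 gene, 691 had several and 1606 had no gene. Of those with 1 gene, 20364 matched RefSeq, and 0 symbols changed.

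Genes were kept where at least 3 of 6 arrays reached that array's 40th percentile (8693 genes). The groups of 3 were compared with limma 3.58.1 (R 4.3.3; Python 3.11.15 and pandas 2.3.3 for summaries), without covariates, and p was adjusted by Benjamini-Hochberg over all genes tested (threshold 0.05). The methods' rank products, over 9 pairwise differences with 100 permutations, were an alternative, here at 0.1, a looser threshold than the study names, and without its MAS5 filter. Further alternatives were other normalizations, filters, variance models, array weights, blocks and leaving out each array. Scripts were tested on simulated data. Named genes were all HSP90, HSP70, HSP110, HSP60, HSP10 and CCT members, up to 4 with the largest positive and 4 with the largest negative difference among DNAJ and small heat shock genes, up to 4 with the largest absolute difference in each partner list, and Lmo1, Tal1 and Cd3e. Dnaja1, Dnaja4, Dnajb1, Dnajb6, Dnajb9, Dnajb11, Dnajc1, Dnajc2, Dnajc8, Dnajc10, Dnajc24, Dnajc27, the Cd8a, Cd8b1, Cd5 and Ptcra markers, and Lyl1 were added after their values were seen. The members and all lists were chosen with earlier results of these data known.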

Additional observations from a re-analysis of the deposited data

How the results depend on the processing

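The count of members past the threshold was 4 with array weights and 0 under every other alternative run. The count over all genes, 14, was 31 after a second quantile normalization, 28 when the hybridization sets were blocked, 541 with array weights, 33 at an adjusted p under 0.1, 86 by rank products, and 7 to 27 with 1 array left out. Same-numbered arrays had residual correlations of -0.64, 0.01 and -0.38. Each such pair of arrays lies in opposite hybridization sets, so these values cannot tell whether the arrays were paired. With the replicate number as a block, 9 genes and 0 members passed.

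With each array left out in turn, differences ran from -0.015 to 0.30 for Hspa8, -0.020 to 0.20 for Cct3, -0.033 to 0.23 for Hspa4l, -0.051 to 0.44 for Cct5, -0.078 to 0.77 for Stip1 and -0.012 to 0.56 for Pdia6, each lowest without control replicate 3. They ran from -0.13 to 0.11 for Hspa2 and -0.072 to 0.62 for Hspa1b, each lowest without SCLtg LMO1tg replicate 1. Array weights gave -0.026 for Hspa8 and -0.072 for Hspa2, the hybridization set block -0.060 for Hspa4l, and quantile normalization -0.077 for Cd3e. The causes were not tested. Under both other scalings, every family median kept its sign but that of the DNAJB genes. Of all values recomputed, 964 were counted as unchanged. For genes this meant the same direction and side of the threshold, and for counts a move of at most 1.5 times. For family medians it meant a shift under the members' mean SD within groups, so a change of sign could be included. Of the rest, 6 genes' values moved past the threshold, 14 changed sign and 11 counts moved by over 1.5 times. The number of arrays limits what could be detected.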
